A study of Mus musculus with 8 samples.

Results

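The NLRP3 inflammasome and interleukin 1 genes examined here were Nlrp3, Pycard, Casp1, Gsdmd, Il1a, Il1b, Il18, Il1rn, Il1r1 and Il1r2. They are 10 of the 57010 genes in the deposited table. They were chosen by name, for their role in sterile kidney injury, although earlier results of these data were known. Their transcripts were counted by single-cell RNA sequencing in kidney cells of male C57BL/6 mice, sorted as live cells and enriched for leukocytes by scatter. There were 7 conditions. Control kidneys were uninjured, and the other conditions had ischemia reperfusion injury (IRI), in which the vessels of the left kidney were clamped for a time and then released. Injured mice received either the vehicle DMSO (V) or entospletinib (E), an inhibitor of the kinase SYK, by injection before the clamp was placed. Mice killed on day 1 (V1 and E1) received no more, and injections went on in those killed on day 7 (V7 and E7) and day 14 (V14 and E14). For each condition the cells of 3 mice were mixed into 1 pool, so a single condition has no replicate and no test between conditions on a single day was possible.

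NLRP3 is a cytosolic sensor of cell damage. Once triggered it gathers the adaptor ASC, encoded by Pycard, which recruits pro-caspase-1, encoded by Casp1. Active caspase-1 cleaves the precursors of interleukin 1 beta (Il1b) and interleukin 18 (Il18), and it cleaves gasdermin D (Gsdmd), whose fragment forms pores in the cell membrane. Interleukin 1 alpha (Il1a) needs no cleavage by caspase-1 to be active. Both forms of interleukin 1 signal through the receptor IL-1R1 (Il1r1). The receptor antagonist (Il1rn) occupies that receptor without signalling, and IL-1R2 (Il1r2) is a decoy that binds interleukin 1 and does not signal. In many myeloid cells transcription of Nlrp3 and Il1b is a priming step that NF-kB drives ahead of assembly, and the assembly itself leaves no direct trace in transcript counts.

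Of 120281 cell barcodes, 79389 (66.0%) passed the filters, between 5806 in V7 and 20571 in V1. The median cell held 960 counts in E14 and between 2071.5 and 2930 in the other conditions. Cells were clustered without the members and without other genes of the pathway, and each cluster was named from marker genes, with "-like" added to the name. This gave 23705 macrophage-like cells (clusters 0, 1 and 9), 11815 monocyte-like cells (clusters 2 and 8), 13908 neutrophil-like cells (clusters 4 and 5) and 4624 cells like type 2 conventional dendritic cells (cDC2), besides lymphoid, endothelial, stromal and tubular classes. Neutrophil-like cells were 0.604% of control cells, 38.2% in V1, 29.6% in V7, 11.7% in V14, 21.8% in E1, 1.75% in E7 and 0.455% in E14. The control and E14 hold only 64 and 42 of them, which limits what can be said of neutrophils there. Levels are CPM, a gene's counts divided by all counts of the class in that condition and multiplied by 1000000, with exact Poisson 95% intervals that cover counting error only. CPM is not scaled by transcript length, so levels are compared between classes or conditions within a gene and not between genes. Levels in T cell-like cells are given as a background for counts that come from RNA outside the cell or from doublets (2 cells under 1 barcode). Between 12.2% and 18.6% of T cell-like cells were called doublets in 6 pools and 3.46% in E14, and called doublets were kept unless stated.

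The promoters of Il1b, Il1a, Nlrp3 and Il1rn are shown for reference, since these are the members that the results below turn on most. Each is the 250 bases before a RefSeq start site, from GRCm38.p6, read 5′ to 3′ on the gene's strand. They lie at chr2:129371140-129371389 (minus strand) for Il1b, chr2:129309973-129310222 (minus strand) for Il1a, chr11:59541319-59541568 (plus strand) for Nlrp3 and chr2:24336610-24336859 (plus strand) for Il1rn. Capitals mark matches on either strand to 4 motifs.
Il1b: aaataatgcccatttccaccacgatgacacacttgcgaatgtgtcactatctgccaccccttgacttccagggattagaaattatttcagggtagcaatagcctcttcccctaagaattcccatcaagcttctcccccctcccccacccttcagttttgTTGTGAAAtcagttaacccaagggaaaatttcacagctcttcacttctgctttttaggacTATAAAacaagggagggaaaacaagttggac
Il1a: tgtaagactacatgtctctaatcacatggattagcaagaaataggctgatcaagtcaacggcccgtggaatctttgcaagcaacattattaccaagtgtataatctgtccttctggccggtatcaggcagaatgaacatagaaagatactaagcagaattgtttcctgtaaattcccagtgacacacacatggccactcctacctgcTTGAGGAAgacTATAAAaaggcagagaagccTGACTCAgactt
Nlrp3: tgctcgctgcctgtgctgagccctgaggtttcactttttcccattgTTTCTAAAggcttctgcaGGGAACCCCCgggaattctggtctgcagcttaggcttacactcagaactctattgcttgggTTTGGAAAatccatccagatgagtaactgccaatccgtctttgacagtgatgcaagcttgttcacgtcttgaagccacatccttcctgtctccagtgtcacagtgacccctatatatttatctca
Il1rn: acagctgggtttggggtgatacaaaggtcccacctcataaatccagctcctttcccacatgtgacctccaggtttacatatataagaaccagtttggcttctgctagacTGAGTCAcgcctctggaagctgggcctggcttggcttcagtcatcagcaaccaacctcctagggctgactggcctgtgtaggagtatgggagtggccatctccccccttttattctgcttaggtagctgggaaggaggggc
The motifs searched were the TATA box (TATAAA), a C/EBP site (TTNNGNAA), an AP-1 site (TGANTCA) and the NF-kB consensus. Il1b has a TATA box at -31 to -26 and a C/EBP match at -91 to -84, counted from the start site. Il1a has a TATA box at -32 to -27, a C/EBP match at -43 to -36 and an AP-1 match at -12 to -6. Nlrp3 has 2 C/EBP matches, at -204 to -197 and -125 to -118, and an NF-kB match at -186 to -177. Il1rn has 1 AP-1 match at -141 to -135 in the window shown. The set holds 3 windows for Il1rn and 2 for Nlrp3, and those not shown hold C/EBP matches only. Among 32851 windows of the same length in the same set, 12.4% held the TATA box, 36.8% the C/EBP motif, 6.75% the AP-1 motif and 7.25% the NF-kB motif. A match is only a run of letters and is no evidence of binding. In GRCm38 coordinates the genes lie on chromosome 2 (Il1a at 129299610-129309972, Il1b at 129364570-129371139 and Il1rn at 24336853-24351494), chromosome 1 (Il1r1 at 40225080-40317257 and Il1r2 at 40074079-40125231), chromosome 9 (Casp1 at 5298517-5307265 and Il18 at 50554827-50581840), chromosome 11 (Nlrp3 at 59541568-59566956), chromosome 7 (Pycard at 127989708-127993867) and chromosome 15 (Gsdmd at 75862327-75867408).

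Which cells carried the transcripts was examined first. Neutrophil-like cells had the highest level of 5 members, namely Nlrp3, Il1a, Il1b, Il1rn and Il1r2. The inflammasome partners Pycard, Casp1 and Gsdmd were low and spread over many classes, and the signalling receptor Il1r1 was highest outside the myeloid cells. Classes were compared within each condition by an exact sign-flip permutation test over the 7 conditions (two-sided, pseudocount of 10 CPM), with p-values adjusted over all 360 pairs of 9 classes and 10 members. The smallest p this design allows is 0.0156, which becomes 0.0291 after adjustment, and 193 of the 360 comparisons passed 0.05. Other genes that rise and fall with the members took part in the clustering, so the classes are not wholly independent of them.

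Nlrp3, the sensor, stood at 1074 CPM in neutrophil-like cells over all conditions, 234 CPM in monocyte-like cells, 185 CPM in cDC2-like cells and 178 CPM in macrophage-like cells. The neutrophil level was above the monocyte level in 7 of 7 conditions, by 2.44 ± 0.52 on the log2 scale (SD over conditions, adjusted p = 0.0291 by the exact permutation test). The difference between monocyte-like and cDC2-like cells (adjusted p = 0.19, exact test) and between cDC2-like and macrophage-like cells (adjusted p = 0.695, exact test) did not pass. T cell-like cells held 19.1 to 91.6 CPM of Nlrp3 in the 7 conditions, below the macrophage-like cells in each (adjusted p = 0.0291, exact permutation test). Without called doublets T cell-like cells held 11.96 CPM of Nlrp3 over all conditions and macrophage-like cells 171 CPM. Cells like basophils or mast cells, 75 with doublets included, were not tested. Without called doublets they held 867 CPM of Nlrp3, and neutrophil-like cells 1102 CPM. With each cell classed by its own marker counts the levels were 530 and 1049 CPM.

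Il1b, the main secreted product, was 11996 CPM in neutrophil-like cells, 2157 CPM in cDC2-like, 1795 CPM in monocyte-like and 1065 CPM in macrophage-like cells. Each of these 4 classes differed from the next in all 7 conditions (adjusted p = 0.0291 each, exact permutation test). When each cell was instead classed by its own marker counts, the difference of 0.61 (log2) between cDC2-like and monocyte-like cells did not pass (adjusted p = 0.0568, exact test), nor did that of 0.27 between monocyte-like and macrophage-like cells (adjusted p = 0.158, exact test). After every cell was thinned to 500 counts, so that depth was equal, 90.1% to 96.8% of neutrophil-like cells and 17.7% to 36.5% of macrophage-like cells had an Il1b count, depending on the condition. Before thinning these shares were 88.1% to 100% and 30.4% to 70.1%. The share in T cell-like cells was 4.56% to 15.3% thinned and 12.2% to 40.5% unthinned, and it is the background for such shares, doublets included.

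Il1r2, the decoy receptor, was 6656 CPM in neutrophil-like cells and 949 CPM in cDC2-like cells (adjusted p = 0.0291, exact permutation test). Its gap of 6.27 ± 0.70 (log2, SD over conditions) between neutrophil-like and macrophage-like cells was the largest among the 10 members. Monocyte-like cells had 279 CPM and macrophage-like cells 91 CPM, while T cell-like cells had 198 CPM. The monocyte level did not differ from the T cell level beyond its spread over conditions (adjusted p = 0.874, exact test), and the macrophage level lay below the T cell level in 6 of 7 conditions. Without called doublets the T cell level was 63.5 CPM, the monocyte level 235 CPM and the macrophage level 73.2 CPM. Monocyte-like cells then lay above T cell-like cells in 7 of 7 conditions, by 1.44 (log2, adjusted p = 0.0295, exact permutation test). The difference of macrophage-like from T cell-like cells turned from -0.76 to 0.53, which did not pass (adjusted p = 0.138, exact test). With each cell classed by its own marker counts, neither class differed from T cell-like cells past the test (adjusted p = 0.118 and 0.864, exact test). Il1r2 in macrophage-like cells was thus not separated from the T cell background, and in monocyte-like cells the call depended on how doublets were treated.

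The antagonist Il1rn followed, at 574 CPM in neutrophil-like and 78 CPM in monocyte-like cells. Macrophage-like cells (39 CPM) differed from T cell-like cells by 0.21 ± 0.28 (log2, SD over conditions), which did not pass (adjusted p = 0.227, exact test). It passed with a difference of 0.94 without called doublets (adjusted p = 0.0295, exact permutation test) and of 1.22 with each cell classed by its own marker counts (adjusted p = 0.0306, exact permutation test). Il1a was 251 CPM in neutrophil-like cells and between 21 and 30 CPM in the other 3 classes. The level in macrophage-like cells was above that in T cell-like cells in 6 of 7 conditions, with an adjusted p of 0.0511 by the exact test. That difference too passed without called doublets (1.03, adjusted p = 0.0295, exact permutation test) and by the cells' own marker counts (1.102, adjusted p = 0.0306, exact permutation test).

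Il18 had a different order. It was 42 CPM in cells like type 1 conventional dendritic cells, 40 CPM in macrophage-like, 36 CPM in monocyte-like, 33 CPM in neutrophil-like and 31 CPM in cDC2-like cells. By the mean log2 level over conditions the last 4 ran macrophage-like, cDC2-like, monocyte-like and neutrophil-like. No neighbouring pair in that order passed (adjusted p = 0.299, 0.573 and 0.0934, exact test). Macrophage-like cells exceeded T cell-like cells in Il18 in 7 of 7 conditions (adjusted p = 0.0291, exact permutation test).

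Of the inflammasome partners, the adaptor Pycard was lower in neutrophil-like than in monocyte-like cells in 7 of 7 conditions, by 1.05 ± 0.27 on the log2 scale (adjusted p = 0.0291, exact permutation test). It was also lower than in macrophage-like cells, by 1.01 ± 0.32 (adjusted p = 0.0291, exact permutation test). Neutrophil-like cells held 0 Pycard counts in the control (64 cells) and E14 (42 cells), and 1 in E7 (117 cells). Counts this few cannot tell a low level from one equal to the other classes. Both calls need all 7 conditions to agree, so they depend on these pools. Casp1, the protease, was lower in neutrophil-like than in monocyte-like cells in all 7 conditions (adjusted p = 0.0291, exact test), and the difference from macrophage-like cells did not pass (adjusted p = 0.227, exact test). The Casp1 call has the same limit, with neutrophil-like counts of 0 in the control, 5 in E7 and 1 in E14. Gsdmd, the pore former, was higher in monocyte-like than in macrophage-like cells in 7 of 7 conditions, by 0.28 ± 0.22 (adjusted p = 0.0291, exact permutation test). By the cells' own marker counts this difference was 0.12 and did not pass (adjusted p = 0.177, exact test). The neutrophil-like cells, highest for the sensor, were thus below monocyte-like and macrophage-like cells for the adaptor in V1, V7, V14 and E1. In the control, E7 and E14 their adaptor counts were too few to place the level.

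Il1r1, the signalling receptor, was 107 CPM in stroma-like cells (98 counts in 199 cells), 100 CPM in endothelial-like cells, 50 CPM in T cell-like cells and 43 CPM in cells that resembled distal tubule or collecting duct. Macrophage-like cells held 3.7 CPM, which was lower than T cell-like cells in 7 of 7 conditions (adjusted p = 0.0291, exact permutation test). Endothelial-like cells were above T cell-like cells with an adjusted p of 0.0511 (exact test), and E7 was the condition in which T cell-like cells were highest, at 103 CPM against 92.9 CPM.

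The change of each member after IRI was next examined in vehicle-treated mice. Ratios between conditions are on the log2 scale and are set relative to the median gene of that comparison, with the SD over the 8 sublibraries in which every pool was sequenced. That SD is technical and does not stand for variation between mice. Ratios are given where both sums held at least 20 counts. The median gene itself lay up to 0.40 from 0 (log2), in the E7 to V7 ratio of monocyte-like cells.

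In macrophage-like cells Nlrp3 was 91.7 CPM (95% interval 86.5 to 97.1) in the control, 270 CPM (259 to 281) in V1, 159 CPM (150 to 169) in V7 and 255 CPM (248 to 262) in V14. All 3 injured vehicle pools lay above the control, with V7 lower than the other two. The ratios to control were 1.40 ± 0.21, 1.08 ± 0.32 and 1.56 ± 0.16, higher in 8 of 8 sublibraries each time. Il1b was 720 CPM in the control and 1810, 820 and 1144 CPM on days 1, 7 and 14, with ratios of 1.18 ± 0.22, 0.47 ± 0.18 and 0.75 ± 0.17. It was therefore highest on day 1 and closest to the control on day 7.

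Il1rn had the largest ratios of the members in macrophage-like cells, with 4.70 CPM in the control and 45.1, 24.7 and 51.7 CPM, or 3.10 ± 0.86, 2.66 ± 0.99 and 3.53 ± 1.00 relative to the median gene. Il1a was 4.70 CPM in the control and 20.6, 18.6 and 38.3 CPM in V1, V7 and V14. In T cell-like cells Il1rn was 5.33 CPM in the control and 29.6, 25.4 and 32.1 CPM after injury, and without called doublets 0.63 CPM (1 count) and 3.81, 6.91 and 10.5 CPM. Without called doublets the macrophage levels were 4.51 CPM in the control and 34.2, 24.0 and 45.6 CPM. Il18, in contrast, was lower than the control on each day, at 53.8 CPM in the control and 29.2, 29.4 and 37.6 CPM afterwards (ratios of -1.03 ± 0.40, -0.59 ± 0.30 and -0.43 ± 0.21, lower in 8 of 8 sublibraries each). Casp1 was 32.9 CPM in the control and between 20.7 and 21.8 CPM in the vehicle pools. Of the 3 members above the level filter of 50 CPM in macrophage-like cells, Nlrp3 was more than 2-fold higher on all 3 days and Il1b on day 1. The share of all genes past that fold in the same direction was 6.56% on day 1, 2.24% on day 7 and 2.92% on day 14.

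The makeup of the macrophage-like class moved with the conditions. Cluster 1, whose leading genes included Plau and Mmp12, held 1142 of 3950 cells in the control, 1857 of 2041 in V1, 690 of 1699 in V7 and 2940 of 7228 in V14. It held 1738 of 2354 cells in E1, 822 of 2383 in E7 and 722 of 4050 in E14. Within cluster 1 Nlrp3 was 138 CPM in the control and 280, 263 and 444 CPM in V1, V7 and V14. Within cluster 0 it was 75.7 CPM in the control and 121, 59.4 and 88.0 CPM, and within cluster 9 it was 73.7 CPM and 96.8, 78.3 and 108 CPM. The Nlrp3 level in clusters 0 and 9 thus stayed at or under 121 CPM in every vehicle pool, below the control level of cluster 1. Il1b was also highest in cluster 1, at 1405 CPM in the control against 344 CPM in cluster 0 and 565 CPM in cluster 9.

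In monocyte-like cells Nlrp3 was 130 CPM in the control, 253 CPM in V1, 335 CPM in V7 and 234 CPM in V14, so the day 7 pool was the highest here and the lowest of the vehicle pools in macrophage-like cells. Il1b was 972 CPM in the control and 1995, 1310 and 1340 CPM. Il1rn was 27.7 CPM in the control and 82.9, 135 and 97.0 CPM, with ratios of 1.39 ± 0.71, 2.54 ± 0.84 and 1.86 ± 1.06 and all 8 sublibraries higher each time. Il1a was 1.63 CPM from 2 counts in the control and 24.1, 118 and 60.3 CPM after injury. More than 2-fold above control were 2 of the 4 members over the level filter on day 1 (Il1rn and Il1r2), 3 of 5 on day 7 (Nlrp3, Il1a and Il1rn) and 1 of 4 on day 14 (Il1rn), against 5.61%, 10.3% and 2.16% of all genes. That filter is a mean of 50 CPM over the 2 pools compared. Il1a and Il1rn passed it only through the vehicle pools, where they were high. Their place among the members past the fold was thus close to fixed, and these counts are no support for a rise. Cluster 2, led by Vcan and Arg1, held 93 of 352 monocyte-like cells in the control, 4998 of 6703 in V1, 671 of 782 in V7 and 345 of 707 in V14.

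In neutrophil-like cells Il1b hardly varied, at 9252 CPM in the control, 12527 CPM in V1, 10451 CPM in V7, 11773 CPM in V14, 11057 CPM in E1, 10437 CPM in E7 and 11285 CPM in E14. The highest was 1.35 times the lowest. Nlrp3 ranged more widely, at 714 CPM (95% interval 546 to 918) in the control, 974 CPM (958 to 990) in V1, 1933 CPM (1880 to 1988) in V7 and 1423 CPM (1372 to 1477) in V14. Il1rn was 258 CPM in the control and 507, 982 and 862 CPM in V1, V7 and V14. Il1a was 58.6 CPM (5 counts) in the control and 176, 596 and 635 CPM. These 3 genes were thus higher in V7 and V14 than in V1, whereas the decoy Il1r2 ran from 9205 CPM in the control to 7155 CPM in V1, 4143 CPM in V7 and 6519 CPM in V14.

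The partners were sparse in neutrophil-like cells. Pycard was between 4.98 and 11.05 CPM in the 3 vehicle pools and Casp1 between 9.47 and 13.5 CPM. Neither had a count among the 64 control cells, where the 3 counts that a count of 0 still allows come to 35.1 CPM for each. Gsdmd was 52.4 CPM in V1, 30.8 CPM in V7 and 33.4 CPM in V14.

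**Figure D1:**
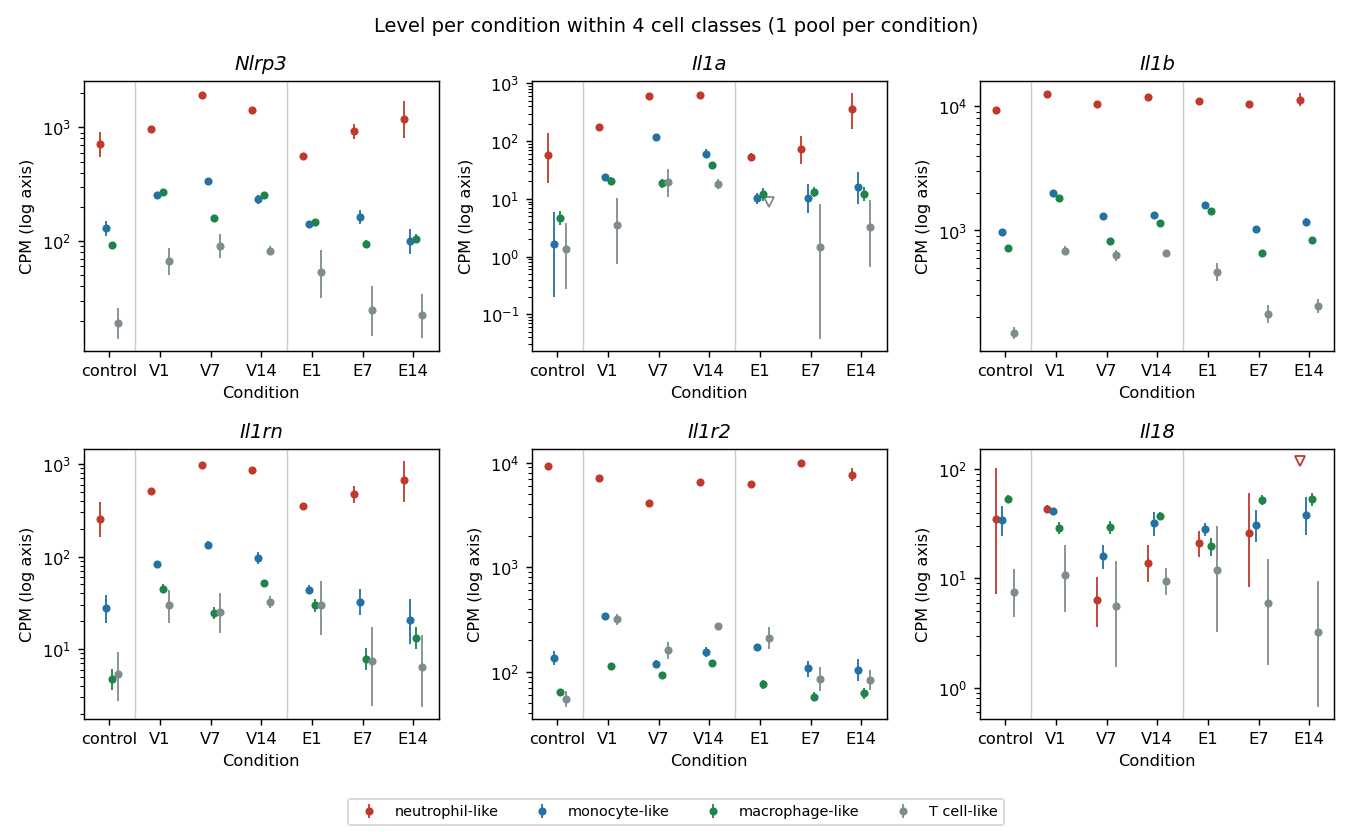
Level of 6 genes in neutrophil-like, monocyte-like, macrophage-like and T cell-like cells in each of the 7 conditions, in CPM on a log axis, with exact Poisson 95% intervals (an open triangle marks the level of 3 counts, drawn where the count is 0). Il1b in neutrophil-like cells stays between 9252 and 12527 CPM in all conditions, while Nlrp3, Il1a and Il1rn are higher in V7 and V14 than in V1.

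The 2 neutrophil-like clusters were then compared in values only, because their leading genes include members of the list. Il1a and Il1rn were among the leading genes of cluster 4, together with Csf1 and Slc7a11, although no member took part in the clustering. Cluster 5 was led by S100a9 and Retnlg. Cluster 4 held 3042 cells in V1, 1612 in V7 and 1741 in V14, and cluster 5 held 4816, 104 and 194, so most neutrophil-like cells were in cluster 5 in V1 and in cluster 4 in V7 and V14. In E1, 453 cells were in cluster 4 and 1723 in cluster 5. Nlrp3 in cluster 4 was 1421 CPM in V1, 2010 CPM in V7, 1515 CPM in V14 and 979 CPM in E1. In cluster 5 it was 740, 1014, 746 and 472 CPM in the same order. Nlrp3 was higher in cluster 4 than in cluster 5 in each of the 7 conditions, and the same held for Il1a and Il1rn. Some conditions held few cells, with 15 control and 27 E14 cells in cluster 4 and 15 E14 cells in cluster 5. Cluster 5 had 1, 0 and 0 Il1a counts in the control, E7 and E14, and 4 Il1rn counts in E14. Il1b in cluster 4 lay between 8341 and 14882 CPM and in cluster 5 between 9459 and 11522 CPM, so these ranges overlapped.

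**Figure D2:**
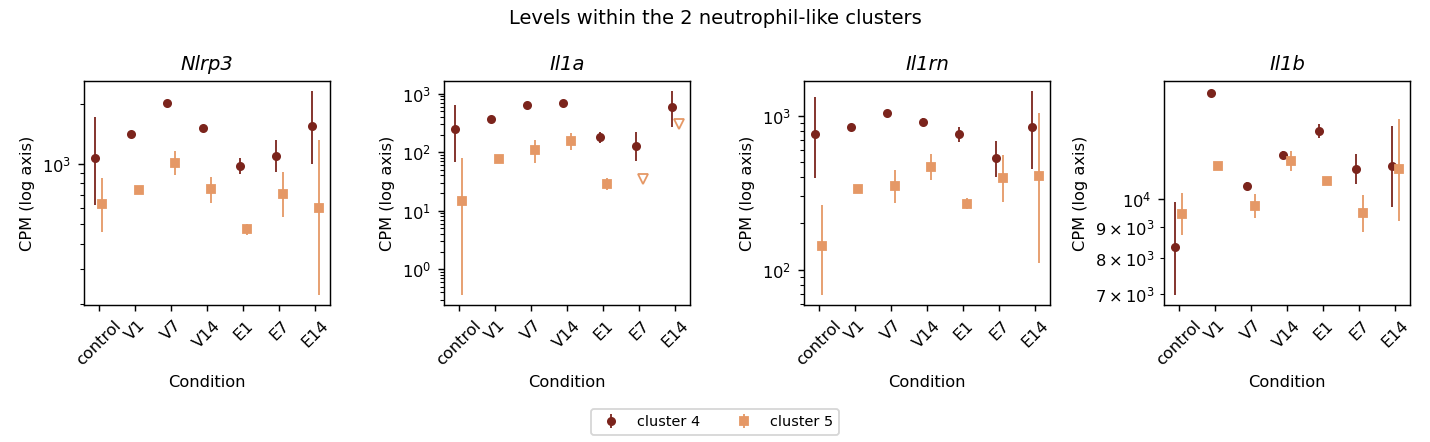
Nlrp3, Il1a, Il1rn and Il1b in the 2 neutrophil-like clusters by condition, in CPM on a log axis with exact Poisson 95% intervals. Cluster 4 lies above cluster 5 for Nlrp3, Il1a and Il1rn in every condition, and the ranges of the 2 clusters overlap for Il1b. Cluster 4 in the control and cluster 5 in E14 hold only 15 cells each.

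Over all kept cells, Il1b was 440 CPM in the control, 3870 CPM in V1, 2163 CPM in V7, 1585 CPM in V14, 2264 CPM in E1, 658 CPM in E7 and 592 CPM in E14. In such sums, more cells of a type and more RNA per cell cannot be told apart, so the counts were split by class. Neutrophil-like cells gave 63.7% of all Il1b counts in V1 from 19.7% of the total counts, 60.0% in V7 from 12.4%, 29.9% in V14 from 4.02% and 52.8% in E1 from 10.8%. In the control, macrophage-like cells gave 54.1% of the Il1b counts from 33.1% of the total. In E7 macrophage-like cells gave 33.8% and cDC2-like cells 30.6%, and in E14 macrophage-like cells gave 48.8%. Neutrophil-like cells, whose own Il1b level hardly varied, were a smaller share of the cells in each E pool than in the V pool of the same day. The Il1b level within macrophage-like cells was also lower in each E pool. The part of each in the whole-sample gap was not tested.

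Nlrp3 over all kept cells was 52.5 CPM in the control, 362, 407 and 240 CPM in V1, V7 and V14, and 151, 71.3 and 59.9 CPM in E1, E7 and E14. Neutrophil-like cells gave 52.9% of these counts in V1 and 59.1% in V7, and macrophage-like cells were the main source in V14 (42.6%) and in the control (57.8%). For Il1r2 the neutrophil-like share was 82.2% in V1, 82.1% in E1, 73.0% in V7 and 48.7% in V14, and cDC2-like cells were the main source in the control (32.4%) and in E7 (37.9%). Neutrophil-like cells gave 65.4% of Il1rn and 67.7% of Il1a counts in V1, and 70.2% and 65.0% in V7.

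Il18 and Il1r1 came from other cells. Il18 over all kept cells lay between 18.5 and 33.9 CPM in the 7 conditions. Macrophage-like cells gave 66.3% of it in the control and monocyte-like cells 56.3% in V1. Il1r1 was 27.2 CPM in the control, 15.7, 8.38 and 14.1 CPM in V1, V7 and V14, and 22.9, 26.5 and 21.4 CPM in E1, E7 and E14. Endothelial-like cells gave 78.0% of the Il1r1 counts in the control, 49.3% in V1 and 72.7% in E1, and T cell-like cells were the main source in V14 (35.2%). Within endothelial-like cells the level was 97.8 CPM in the control, 111, 76.8 and 65.6 CPM in V1, V7 and V14 and 113, 92.9 and 96.0 CPM in E1, E7 and E14. The V7 and V14 values within endothelial-like cells were thus also below the control, though by less than in the whole sample. They rest on 53 and 83 counts in 1 pool each, and the gap was not tested.

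**Figure D3:**
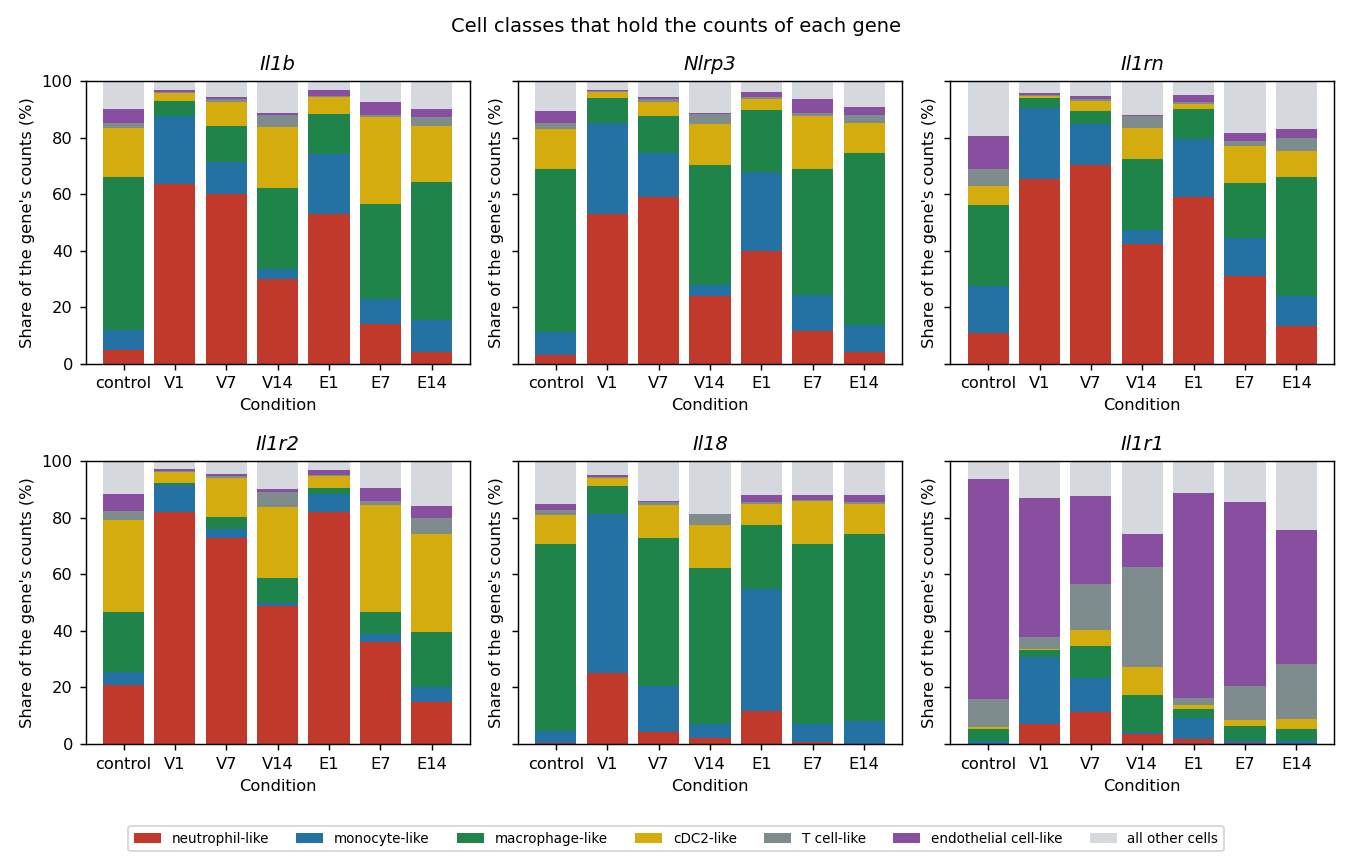
Share of each gene's counts (percent, stacked) that came from each cell class, by condition, for Il1b, Nlrp3, Il1rn, Il1r2, Il18 and Il1r1. Neutrophil-like cells give 63.7% of Il1b counts in V1 and 60.0% in V7, and endothelial-like cells give 78.0% of Il1r1 counts in the control.

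Whether entospletinib changed the members within a class was tested over the 3 same-day pairs of pools, with the day as a block. The test was edgeR's quasi-likelihood test on summed counts, with Benjamini-Hochberg adjustment over all genes tested in the class. All 10 members passed the low-count filter in each of the 3 classes tested. The pairs leave 2 residual degrees of freedom, and the p-values rest on pools and not on single mice.

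In macrophage-like cells 4 of the 10 members fell with entospletinib and none rose. Of all 13334 genes, 1.54% fell and 0.6% rose. Nlrp3 was 147 CPM in E1, 94.97 CPM in E7 and 105 CPM in E14, each below its same-day vehicle pool (270, 159 and 255 CPM) and the last 2 near the control. Its log2 fold change over the 3 days was -1.09 (SE 0.13, adjusted p = 0.000537, edgeR), and it was lower in 3 of 3 pairs and in 8 of 8 sublibraries of each. Il1rn was 29.7, 7.89 and 13.2 CPM in E1, E7 and E14 and fell by 1.45 on the log2 scale (SE 0.24, adjusted p = 0.00733, edgeR). Il1a was 11.9, 13.3 and 12.2 CPM and fell by 1.097 (SE 0.20, adjusted p = 0.00988, edgeR). Il1r2 fell by 0.86 (SE 0.13, adjusted p = 0.00316, edgeR) and by 0.65 without called doublets (SE 0.12, adjusted p = 0.00718, edgeR). Its level in macrophage-like cells ran from 57.8 to 120 CPM over the conditions. The class tests did not separate that level from the T cell background, so its fall may not be one of macrophage transcripts. Il1b was 1437, 665 and 836 CPM, with a log2 fold change of -0.49 (SE 0.13) that did not pass (adjusted p = 0.0810, edgeR).

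The Nlrp3 and Il1r2 calls held under all 7 alternative settings, while Il1a was lost without the day 14 pair (adjusted p = 0.131, edgeR). Il1rn was lost without the day 14 pair (adjusted p = 0.0784, edgeR) and under DESeq2 (adjusted p = 0.0561). Il1b passed in 4 of the 7. Tested in each macrophage-like cluster on its own, Nlrp3 fell by 0.99 in cluster 1 (SE 0.14, adjusted p = 0.00127, edgeR). In cluster 0 its fold change was -0.30 (adjusted p = 0.488, edgeR) and in cluster 9 -0.54 (adjusted p = 0.352, edgeR). Il1rn passed in cluster 1 (-1.04, SE 0.20, adjusted p = 0.0166, edgeR) but not in cluster 0 (-1.30, SE 0.40, adjusted p = 0.181, edgeR) or cluster 9 (-1.44, SE 0.47, adjusted p = 0.291, edgeR). Il1a passed in no cluster on its own, with fold changes of -1.74 in cluster 0 (adjusted p = 0.149, edgeR), -0.66 in cluster 1 (adjusted p = 0.106, edgeR) and -0.33 in cluster 9 (adjusted p = 0.939, edgeR).

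Neutrophil transcripts in the macrophage-like cells moved with some of these results. The summed level of 10 neutrophil markers there was 154 CPM in the control, 340, 255 and 350 CPM in V1, V7 and V14 and 356, 182 and 209 CPM in E1, E7 and E14, against 7474 to 26568 CPM in neutrophil-like cells. Ly6g, 1 of these markers, had at most 1 count in macrophage-like cells in any condition. It was not among the markers that named either neutrophil-like cluster, so its few counts say little about the others. The marker sum was lower in E than in V on days 7 and 14 and not on day 1. The part of these transcripts in the Nlrp3, Il1a, Il1rn and Il1r2 results was not tested.

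In neutrophil-like cells 1 of the 10 members, Il1a, fell with entospletinib, where 0.264% of all 9463 genes fell. Its level was 53.6 CPM in E1 (146 counts, 95% interval 45.2 to 63.0) against 176 CPM in V1 (169 to 183). It was 72.5 CPM in E7 (14 counts, 39.6 to 122) against 596 CPM in V7 (567 to 627), and 355 CPM in E14 (9 counts, 162 to 674) against 635 CPM in V14 (601 to 671). The intervals of the day 14 pools overlapped and those of the earlier days did not. The log2 fold change was -1.996 (SE 0.35, adjusted p = 7.47e-05, edgeR), the smallest p of any gene in these cells, and the call held in 7 of 7 alternatives, with an adjusted p (edgeR) of up to 0.0491 when the day 1 pair was left out. Within cluster 4 alone the fold change was -1.44 (SE 0.38, adjusted p = 0.102, edgeR) and within cluster 5 alone -1.84 (SE 0.54, adjusted p = 0.155, edgeR), so neither passed.

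Nlrp3 in neutrophil-like cells was 555 CPM in E1, 927 CPM in E7 and 1184 CPM in E14, below V1 (974 CPM), V7 (1933 CPM) and V14 (1423 CPM) in each pair, with the E14 value resting on 30 counts. Its log2 fold change of -0.84 (SE 0.30) did not pass (adjusted p = 0.327, edgeR). Il1rn was 348, 471 and 671 CPM in E1, E7 and E14, with a fold change of -0.76 (SE 0.31, adjusted p = 0.488, edgeR). Il1b had a fold change of -0.19 (SE 0.32, adjusted p = 0.999, edgeR) and Il1r2 one of 0.31 (SE 0.32, adjusted p = 0.999, edgeR). For Il1r2 the pairs pointed different ways, with 6201 CPM in E1 against 7155 CPM in V1 and 9852 CPM in E7 against 4143 CPM in V7. Cluster 4 held 453 of 2176 neutrophil-like cells in E1 against 3042 of 7858 in V1. It held 67 of 117 in E7 against 1612 of 1716 in V7. In E14 it held 27 of 42, against 1741 of 1935 in V14. Its share was thus lower in the E pool of each day, and it was the cluster with the higher Nlrp3, Il1a and Il1rn. The part of this makeup in the fold changes was not tested.

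In monocyte-like cells no member passed, and none of the 10458 genes did (0%). By edgeR 1418 genes had an unadjusted p under 0.05 there, and DESeq2 called 240. Nlrp3 was 141, 163 and 99.8 CPM in E1, E7 and E14 against 253, 335 and 234 CPM in V1, V7 and V14, a log2 fold change of -1.14 (SE 0.19, adjusted p = 0.0698, edgeR). Il1rn was 44.0, 32.4 and 20.6 CPM, a fold change of -1.68 (SE 0.32, adjusted p = 0.0939, edgeR). Il1a had a fold change of -2.13 (SE 0.44, adjusted p = 0.105, edgeR) and Il1r2 one of -0.70 (SE 0.16, adjusted p = 0.131, edgeR). These 4 genes passed in 3 of the 7 alternatives, namely DESeq2, no low-count filter and the fit without the day 7 pair. Gsdmd was higher with entospletinib in each pair, at 61.3, 49.4 and 70.5 CPM against 45.5, 27.9 and 34.8 CPM, with a fold change of 0.62 (SE 0.17, adjusted p = 0.170, edgeR).

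The inflammasome partners and Il18 did not pass in any of the 3 classes. Among the 7 alternatives Gsdmd in monocyte-like cells passed once, without the day 7 pair (0.67, adjusted p = 0.0227, edgeR). In macrophage-like cells the fold changes were 0.11 for Casp1 (SE 0.16), 0.03 for Pycard (SE 0.15), 0.27 for Gsdmd (SE 0.13) and 0.16 for Il18 (SE 0.17), each much smaller than that of Nlrp3 in the same cells. Il18 in macrophage-like cells was 52.4 CPM in E7 and 53.3 CPM in E14, close to the 53.8 CPM of the control, and 19.7 CPM in E1. In cDC2-like cells, which were not tested across days, Il1r2 was 634 CPM in E1 against 1779 CPM in V1, a ratio of -1.32 ± 0.29 (log2, SD over sublibraries, lower in 8 of 8). On days 7 and 14 it was 1107 CPM in E7 against 887 CPM in V7 and 739 CPM in E14 against 836 CPM in V14.

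**Figure D4:**
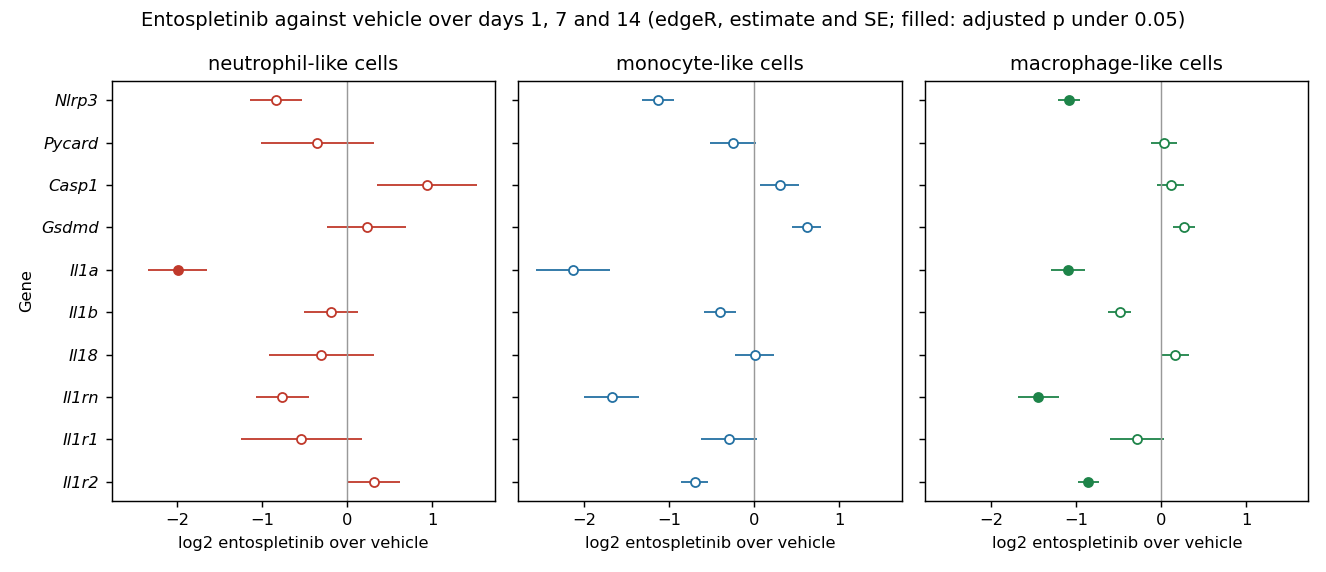
Log2 fold change of entospletinib over vehicle across the 3 days for the 10 genes in neutrophil-like, monocyte-like and macrophage-like cells, from edgeR with the day as a block, with SE bars and filled points where the adjusted p is under 0.05. Nlrp3, Il1a, Il1rn and Il1r2 in macrophage-like cells and Il1a in neutrophil-like cells are the filled points, all below 0. The level of Il1r2 in macrophage-like cells was not separated from the T cell background.

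The counts of the agonist and its antagonist were also set against each other. The ratio of Il1b to Il1rn counts depends on the length and capture of both transcripts, so only its change across conditions is read. In neutrophil-like cells it was 35.9 in the control, 24.7 in V1, 10.6 in V7, 13.7 in V14, 31.7 in E1, 22.2 in E7 and 16.8 in E14. In monocyte-like cells it was 35.1 in the control, 24.1, 9.71 and 13.8 in V1, V7 and V14, and 36.5, 31.8 and 57.1 in E1, E7 and E14. In macrophage-like cells it was 153 in the control, 40.1, 33.3 and 22.1 in the vehicle pools and 48.4, 84.2 and 63.3 with entospletinib. The ratio was lower than the control in every vehicle pool of the 3 classes and higher in each entospletinib pool than in the vehicle pool of the same day. These ratios have no test of their own. Some rest on few Il1rn counts, with 22 in the control and 17 in E14 in neutrophil-like cells, and 14 in E14 in monocyte-like cells. Within single clusters both patterns held in clusters 1 and 2 and failed in part in clusters 0, 4, 5, 8 and 9. In cluster 4 the ratio was 11 in the control, 17.7 in V1 and 17.1 in E1. In cluster 8 it was 53.7, 77.4 and 73.1 in the same order. In neutrophil-like cells the highest level over the 7 conditions was 1.35 times the lowest for Il1b and 3.81 times the lowest for Il1rn.

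Another 46 genes of the pathway were counted, comprising other sensors, regulators and executioners, ligands, receptors and signalling proteins. The low-count filter left 36 of them in neutrophil-like, 35 in monocyte-like and 37 in macrophage-like cells. In macrophage-like cells 1 of the 37 fell and 1 rose, beside 1.54% and 0.6% of all genes. Ninj1, which encodes a protein that ruptures the membrane of dying cells, fell by 0.77 on the log2 scale (SE 0.18, adjusted p = 0.0411, edgeR). Its mean level was 16.2 CPM. Il18r1, a subunit of the interleukin 18 receptor, rose by 1.04 in the same cells (SE 0.25, adjusted p = 0.0436, edgeR), at a mean level of 7.01 CPM. No gene of this list passed in neutrophil-like or monocyte-like cells. There 4 of 36 and 6 of 35 had an unadjusted p under 0.05 by edgeR, beside 530 of 9463 and 1418 of 10458 among all genes. The median fold change of the 46-gene list in macrophage-like cells was -0.11, beside -0.39 for the 10 members and 0.01 for all genes. In neutrophil-like cells the medians were -0.23, -0.33 and -0.06, and in monocyte-like cells 0.04, -0.35 and 0.01.

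The genes whose levels ran most closely with each member were listed over 82 sums of a class and a condition, from 14 classes, among 8624 genes. The sums share libraries and depth, so these correlations are descriptions only. Nlrp3 ran closest to Il1b (Pearson's r = 0.947), then Clec4n (0.920) and Ptafr (0.908). Il1b ran closest, after Nlrp3, to Dusp1 (0.930) and Cass4 (0.919). Il1a ran closest to Il1rn (0.894), and Il1rn to Slc7a11 (0.934). Il1r2 ran closest to Cass4 (0.900). Il18 ran closest to Plbd1 (0.879), Casp1 to Tgfb1 (0.877) and Gsdmd to Ehbp1l1 (0.905). Il1r1 ran closest to Smco4 (0.811). Pycard had the weakest partner, Gnptab (0.624).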

How the data were processed

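Cells came from 7 pools of 3 mice each, barcoded by split pooling (Parse Evercode WT) and sequenced as 8 sublibraries that each hold all conditions. The count values are whole transcripts per gene and cell, deposited by the authors after alignment to mm10 with the Parse pipeline; the annotation release is not given in the sources used here. The 10 members and all lists were chosen with earlier results of these data known. Cells were kept with at least 300 genes, at most 20000 counts, at most 25% mitochondrial and at most 1.5% ribosomal protein counts. Total counts per condition ran from 11842327 to 71691915. Clustering used 4000 variable genes without the members, 40 components, 15 neighbours and Leiden resolution 1 (leidenalg 0.10.2, scikit-learn 1.9.0). Doublets (8.76% called, at a score of 0.5) were kept in the main values. Of 105340 well combinations, 13712 occur in more than 1 sublibrary, never with 2 conditions. Summed counts were tested with edgeR 4.0.16 and, as an alternative, DESeq2 1.42.0 (R 4.3.3), with a day block and a threshold of 0.05. Class tests were exact permutation tests (scipy 1.17.1). All 10 members were named, with the 3 genes most like each and the pathway genes that passed. Scripts were tested on simulated data.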

Additional observations from a re-analysis of the deposited data

Results flagged for a closer look

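Il1r2 in neutrophil-like cells was higher in E7 than in V7 in 8 of 8 sublibraries and lower in E1 than in V1 in 8 of 8. The difference between the 2 log2 ratios was 1.22. It was not tested, because each condition is 1 pool.

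Barcodes outside the kept cells were used in no comparison, and each member had its highest level there in an injured pool. In V7 these barcodes held 960 CPM of Il1b, 276 CPM of Il1r2, 148 CPM of Nlrp3, 68.1 CPM of Il1rn and 55.6 CPM of Il1a. The control values there were 127.7 CPM for Il1b, 40.4 CPM for Il1r2, 11.6 CPM for Nlrp3 and 2.28 CPM for Il1rn. In E1 they held 26.3 CPM of Pycard and 22.4 CPM of Gsdmd, and in V14 they held 11.6 CPM of Casp1, 18.5 CPM of Il18 and 25.2 CPM of Il1r1.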

How the results depend on the processing

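Entospletinib against vehicle called 37 genes in neutrophil-like, 0 in monocyte-like and 286 in macrophage-like cells. In neutrophil-like cells the count was 21 with DESeq2, 75 with each cell gated on its own markers, 4 in cluster 4 alone and 1 in cluster 5 alone. In monocyte-like cells it was 240 with DESeq2, 578 with no low-count filter, 18 with the gate, 23 without called doublets and 4 in cluster 8 alone. In macrophage-like cells it was 628 with no filter, and 87, 110 and 31 in clusters 0, 1 and 9 alone. Leaving out 1 day's pair gave 21 to 68 genes in neutrophil-like, 0 to 451 in monocyte-like and 44 to 837 in macrophage-like cells, with 44 reached without the day 14 pair. The tests within neutrophil-like and monocyte-like clusters were chosen after seeing the data. Of 360 class tests 193 passed, and 0 did when any 1 condition was left out, where the smallest p that 6 pools allow cannot pass after adjustment. Il1r2 in neutrophil-like cells, V7 over control, turned from -1.04 to 0.039 when all genes with a count set the median gene. Of the 193 class calls, 170 were kept without called doublets and 160 with the gate, where 23 and 33 were lost and 21 and 24 gained. Among differences past the test in neither, 22 and 38 changed sign. The macrophage-like to endothelial-like difference in Il1r2 turned from -0.095 to 0.81 without called doublets, which passed. The T cell-like to proximal tubule-like difference turned to -0.19 for Nlrp3, -0.13 for Il1b and -0.030 for Il1r2 without called doublets. With the gate the B cell-like to T cell-like difference turned to -0.0039 for Gsdmd, and the T cell-like to NK cell-like difference to -0.28 for Il1rn. Also with the gate, differences that had not passed turned and passed, to 0.54 for Il1rn in macrophage-like over cDC2-like cells, 0.44 for Il1r1 in cDC2-like over proximal tubule-like cells and -0.45 for Il1rn in T cell-like over proximal tubule-like cells. The causes were not tested. The 64 control and 42 E14 neutrophil-like cells limit every ratio that uses them. The day block is in the main model.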
